A study of Mus musculus with 6 samples.

Results

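The 9 genes described here are the neurexins Nrxn2 and Nrxn3, the neuroligins Nlgn1, Nlgn2 and Nlgn3, the leucine-rich repeat genes Lrrtm1 and Lrrtm2, and the cerebellins Cbln1 and Cbln2. They were chosen by name, as presynaptic neurexins and their postsynaptic and secreted partners, from the 42396 genes in the count tables, and all 9 were found there. RNA was sequenced from primary cultures of the ventral midbrain of wild-type mouse embryos at embryonic day 14. The cells were plated at 150000 per well and infected on the same day with a lentivirus at a multiplicity of 5. In the knockdown group (3 libraries) the virus carried pll3.7-shRmstI, a short hairpin RNA that targets circRmst, which is a circular transcript of Rmst. In the control group (3 libraries) it carried pll3.7-Scr2, a scramble hairpin. Both groups were thus infected, and both were harvested after 3 days in vitro. The labels speak of 3 independent cultures, do not say which libraries share one, and report that a few wells were harvested for each condition. If libraries share a culture, p-values measure only the spread between these libraries.

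Neurexins are presynaptic cell surface proteins that reach across the synaptic cleft, and alternative promoters give each gene a long alpha form and a shorter beta form. Neuroligins and LRRTM proteins bind neurexins from the postsynaptic side. Neuroligin 1 and LRRTM proteins are best known at excitatory synapses and neuroligin 2 at inhibitory ones, while neuroligin 3 is found at both. Cerebellins are secreted proteins that link neurexins to delta glutamate receptors. Together these proteins organise synapses and set their properties.

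The libraries held between 35256611 and 43646521 counts in the knockdown and between 27248934 and 41982557 in the control. Rmst, the host gene of the targeted RNA, was at 105, 97.1 and 115 CPM (counts scaled to library size, with TMM factors) in knockdown replicates 1, 2 and 3, against 115, 117 and 124 CPM in control replicates 1, 2 and 3. Gene-level counts mix linear and circular transcripts, so they do not check the knockdown. The labels call the cells dopamine neurons. Of the dopamine neuron markers, Th was at 36.9 to 59.5 CPM in the knockdown and 40.7 to 60.9 CPM in the control. The GABAergic marker Gad1 was at 242 to 302 CPM in the knockdown and 247 to 303 CPM in the control. The glutamatergic marker Slc17a6 was at 117 to 144 and 106 to 129 CPM, so markers of other neurons were present too. Another glutamatergic marker, Slc17a7, was at 0.195 CPM or less in all libraries. The 10 dopamine neuron markers summed to 519 to 617 CPM in the knockdown and 539 to 635 CPM in the control. The GABAergic ones summed to 1210 to 1340 and 1200 to 1360 CPM, and the glutamatergic ones to 662 to 753 and 591 to 911 CPM. Summed over 10 markers each, astrocytes and radial glia were at 1920 to 2110 CPM in the knockdown and 1760 to 2140 CPM in the control, and neurons in general at 5560 to 6830 and 6080 to 6480 CPM. The markers of 3 other cell types had a median log2 fold change of -0.27, with overlapping sums. The oligodendrocyte lineage summed to 295 to 376 CPM in the knockdown and 303 to 477 CPM in the control, dividing cells to 259 to 309 and 261 to 403 CPM, and microglia and macrophages to 24.9 to 26.1 and 26.0 to 31.6 CPM, with 1 of 10 microglial markers at 0 in all libraries. No marker passed the test, and their part in the results below was not tested. Fewer cells of a type and less RNA per cell cannot be told apart in such bulk libraries. Knockdown replicates 1 and 3 stood apart from the control in opposite directions among genes that span a long stretch of genome, and this touches Nrxn3 and Nlgn1 below.

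None of the 8 genes that could be tested on counts passed the test between knockdown and control. In edgeR's quasi-likelihood test over 17439 genes, 0 of the 8 had an adjusted p under 0.05, against 0 of all genes tested (0%). At an unadjusted p under 0.05 there were 0 of the 8, against 1.10% of all genes. The knockdown and control libraries overlapped in all 8, whereas they did not overlap in 5.20% of all genes. The log2 fold changes of the 8, knockdown over control, ran from -0.16 to 0.10 with a median of -0.041, beside a median of -0.006 over all genes tested. Every adjusted p was 1.00. The genes differed in how tightly these data bound a change: the 95% interval of Nlgn2 lay between 0.844-fold and 1.13-fold, that of Nrxn3 between 0.727-fold and 1.58-fold.

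**Figure D1:**
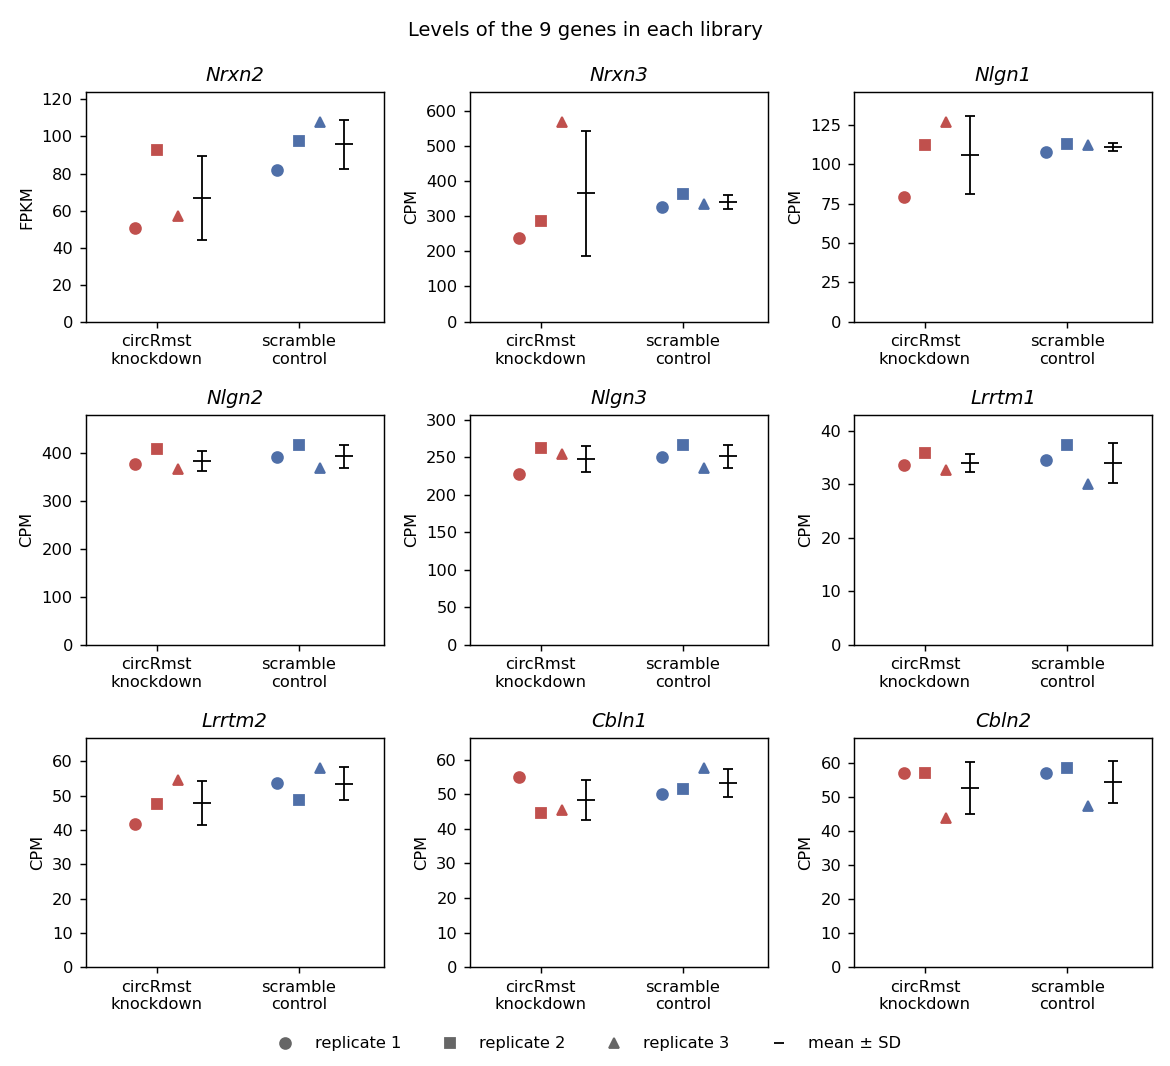
Level of each of the 9 genes in the 3 knockdown and 3 control libraries, in CPM (for Nrxn2 in FPKM, the authors' values), with the mean ± SD beside the points and one symbol per replicate number. Nrxn3 and Nlgn1 spread widely in the knockdown, from 238 to 569 and from 78.9 to 127 CPM, while Nlgn2 and Nlgn3 stay within a narrow range in both groups.

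**Figure D2:**
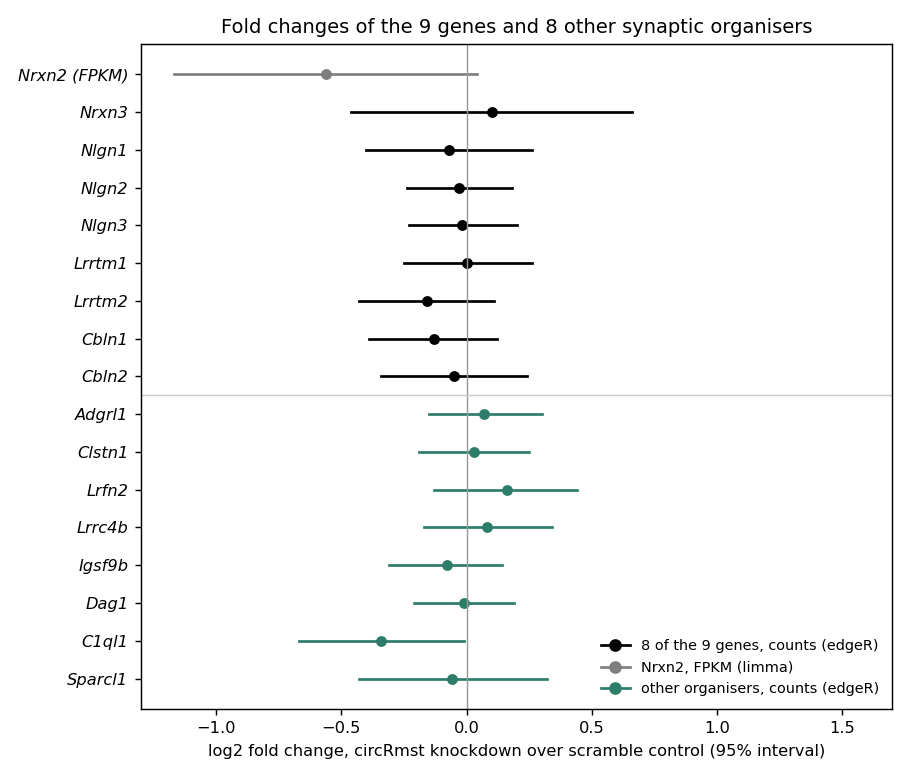
Log2 fold change of knockdown over control with its 95% interval for the 9 genes (upper part; Nrxn2 from FPKM with limma, the others from counts with edgeR) and for 8 other synaptic organisers named by rule (lower part). All intervals of the upper part include 0, and in the lower part that of C1ql1 ends at -0.01.

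Between genes, levels are compared per length, in FPKM (fragments scaled to transcript length and library size, as deposited by the authors). Nrxn2 had the highest value, at 66.8 ± 22.5 FPKM in the knockdown and 95.8 ± 13.2 FPKM in the control (SD, n = 3 each, also below). Nlgn2 followed at 41.4 ± 3.50 FPKM in the knockdown and 41.6 ± 2.51 FPKM in the control, and Nlgn3 at 35.3 ± 3.11 and 35.1 ± 2.39 FPKM. Their ranges over the 6 libraries touched very closely without overlap, at 38.8 to 45.4 FPKM for Nlgn2 and 32.6 to 38.7 FPKM for Nlgn3, and Nlgn2 was the higher one in 6 of 6 libraries. Nrxn3 came next at 19.1 ± 6.12 FPKM in the knockdown and 19.8 ± 1.80 FPKM in the control. The cerebellins lay below it, Cbln1 at 12.5 ± 1.66 FPKM in the knockdown and 13.5 ± 0.917 FPKM in the control, Cbln2 at 11.7 ± 2.06 and 12.1 ± 1.28 FPKM. Nrxn3 and Cbln1 overlapped in range, and so did Cbln1 and Cbln2. Lrrtm1 was at 6.81 ± 0.628 FPKM in the knockdown and 6.80 ± 0.714 FPKM in the control, Lrrtm2 at 4.93 ± 0.508 and 5.40 ± 0.466 FPKM, and Nlgn1 was the lowest at 3.79 ± 0.870 and 3.99 ± 0.104 FPKM.

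Within families, ratios of the levels gave no p under 0.05 between knockdown and control. The ratio of Nlgn2 to Nlgn1, the inhibitory over the excitatory neuroligin, was 14.3, 10.8 and 8.85 in knockdown replicates 1, 2 and 3, against 10.4, 11 and 9.87 in control replicates 1, 2 and 3 (ratio of FPKM, exact permutation test on log2 ratios, two-sided p = 0.8). Both extremes were in the knockdown. In replicate 1 Nlgn1 deviated from the control mean by -0.50 and Nlgn2 by -0.05 on the log2(FPKM + 0.1) scale, and in replicate 3 Nlgn1 by 0.13 and Nlgn2 by -0.10. The ratio of Nlgn2 to Nlgn3 was 1.18 ± 0.0518 in the knockdown and 1.19 ± 0.0351 in the control (exact permutation p = 0.8). Cbln1 over Cbln2 gave 1.08 ± 0.177 in the knockdown and 1.13 ± 0.206 in the control (exact permutation p = 1), and Lrrtm1 over Lrrtm2 gave 1.39 ± 0.176 and 1.27 ± 0.244 (exact permutation p = 0.7). These are 4 of 6 ratios computed within families, and with 3 libraries against 3 the smallest possible p is 0.1, which none of the 6 reached.

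**Figure D3:**
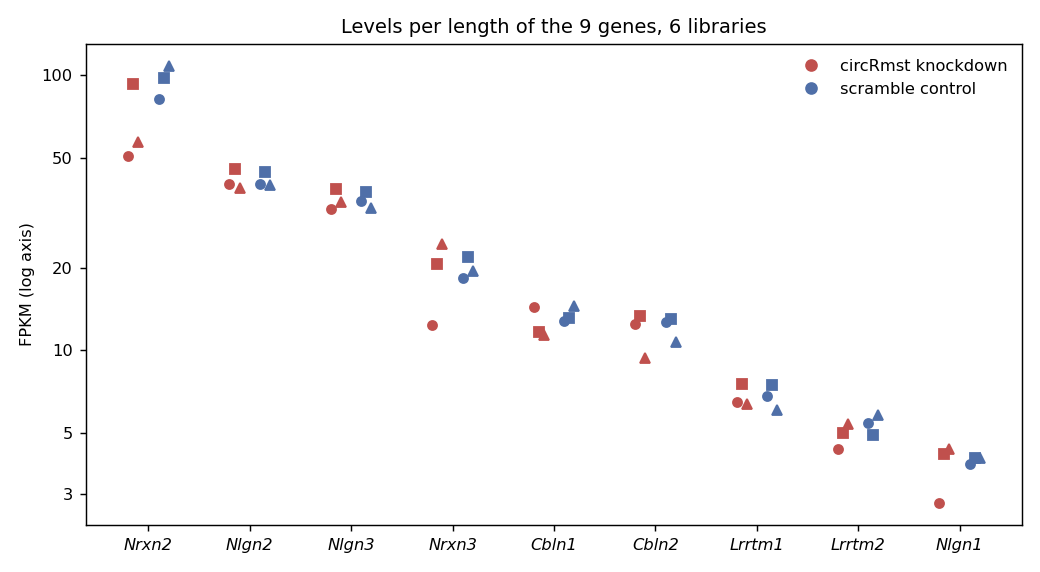
FPKM of the 9 genes in each library on a log axis, ordered by their mean, with knockdown libraries left of control libraries for each gene. Nrxn2 lies highest, between 50.7 and 108 FPKM, and Nlgn1 lowest, between 2.79 and 4.39 FPKM.

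Nrxn3 was the most variable of the 8 genes, and its spread sat within the knockdown. It was at 238, 287 and 569 CPM in knockdown replicates 1, 2 and 3, against 325, 363 and 335 CPM in control replicates 1, 2 and 3. The knockdown libraries lay on both sides of the control, replicates 1 and 2 below it and replicate 3 above it. The SD of log2 CPM was 0.66 in the knockdown and 0.08 in the control, beside medians of 0.18 and 0.16 over all genes tested. The log2 fold change was 0.10 ± 0.25 (SE, 95% interval -0.46 to 0.66, edgeR adjusted p = 1.00). Single libraries set its direction: it was -0.37 without knockdown replicate 3 and 0.33 without knockdown replicate 1. Without knockdown replicate 3 Nrxn3 had an unadjusted p of 0.0117, and the adjusted p stayed at 1.00 in edgeR.

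Nlgn1 varied in the same libraries and less far. It was at 78.9, 112 and 127 CPM in knockdown replicates 1, 2 and 3, against 108, 113 and 112 CPM in control replicates 1, 2 and 3. Knockdown replicate 1 was the lowest library and knockdown replicate 3 the highest, with the control between them. The SD of log2 CPM was 0.35 in the knockdown and 0.03 in the control. The log2 fold change was -0.07 ± 0.15 (SE, 95% interval -0.40 to 0.26, edgeR adjusted p = 1.00), and it was 0.10 without knockdown replicate 1.

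What these genes share, and the other 6 do not, is their size. Nrxn3 lies on chromosome 12 from 88722701 to 90334935 (GRCm38, plus strand) and spans 1612.2 kb, although its merged exons in GENCODE M21 add up to 12.605 kb. Nlgn1 lies on chromosome 3 from 25421808 to 26332866 (minus strand) and spans 911.1 kb with 13.422 kb of exons. On the opposite strand, Gm37980 shares 439 exon bases with Nrxn3 and A830092H15Rik shares 1229 with Nlgn1. The other 6 genes tested span between 3.7 kb (Cbln1) and 30.7 kb (Lrrtm1). The look at span was chosen after the values were seen, and every gene of at least 1 CPM was then set by its span against the mean of the 3 control libraries. In knockdown replicate 1 the median deviation was 0.07 log2 units for the 3753 genes under 10 kb, -0.14 for the 1671 genes of 100 to 300 kb, -0.36 for the 469 genes of 300 to 1000 kb and -0.67 for the 57 genes over 1000 kb. In knockdown replicate 3 it ran the other way, at -0.10, 0.08, 0.16 and 0.33 for the same ranges. Knockdown replicate 2 stayed between -0.01 and 0.03 in all 6 ranges, and the control libraries between -0.06 and 0.07.

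Nlgn1 followed its span range closely. It deviated by -0.49, 0.01 and 0.19 log2 units in knockdown replicates 1, 2 and 3, where the medians of 300 to 1000 kb were -0.36, 0.01 and 0.16. With each library's trend over span taken out, the spread of Nlgn1 over the 6 libraries was 0.03 log2 units, against 0.23 with the trend in place (SD). Nrxn3 deviated by -0.51, -0.25 and 0.74, where the medians over 1000 kb were -0.67, 0.01 and 0.33. Only 3 of the 57 genes over 1000 kb, Nrxn3 included, were as high in knockdown replicate 3. Without the trend its SD was 0.24, against 0.42 with it, and with the trend as an offset in edgeR its log2 fold change was 0.14 and that of Nlgn1 was -0.0050. The summed level of the 10 markers of neurons in general was also lowest in knockdown replicate 1, at 5560 CPM. It was highest in knockdown replicate 2, at 6830 CPM, where long genes did not deviate, and was 6510 CPM in knockdown replicate 3. The part that the makeup of the cultures has in the pattern was not tested.

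**Figure D4:**
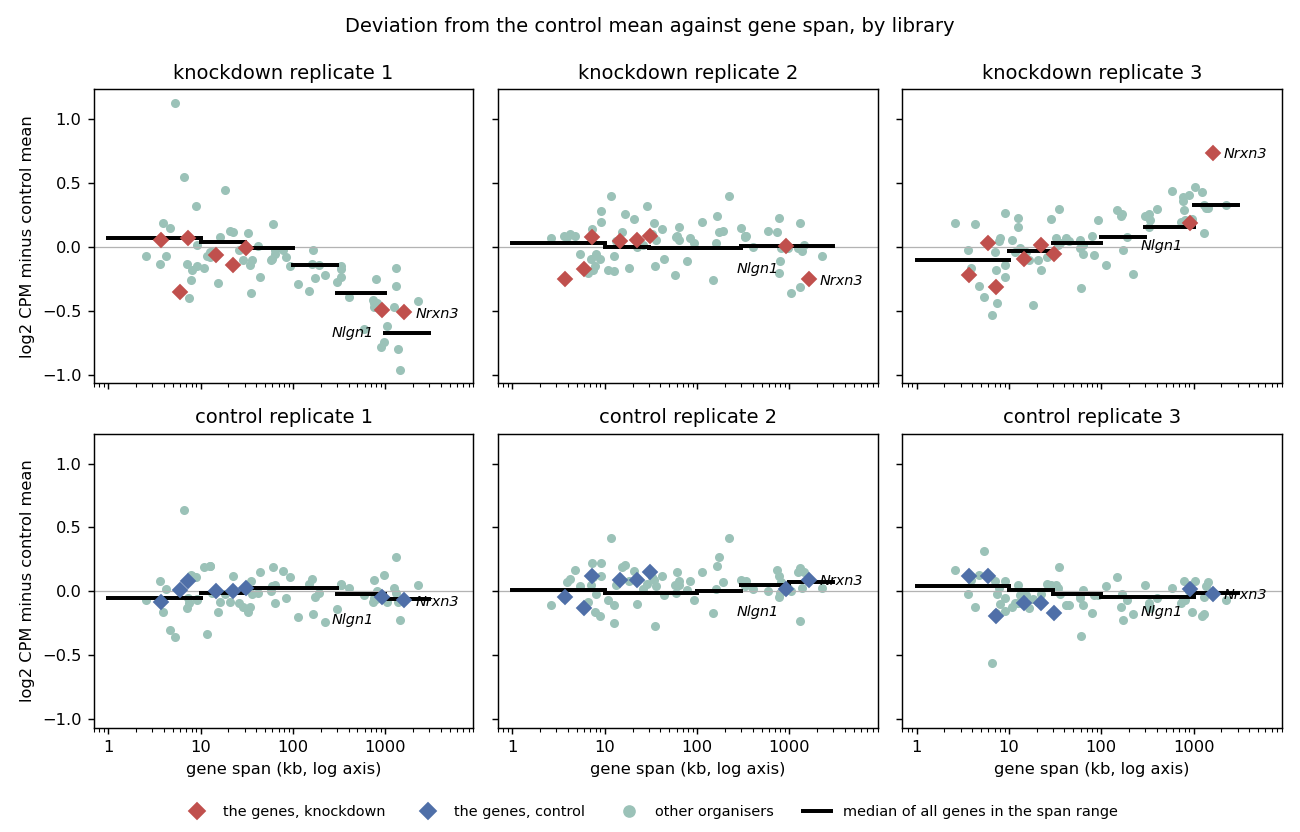
Log2 CPM of each gene minus its mean over the 3 control libraries, against the genomic span of the gene in kb on a log axis, for each library. Diamonds are the 8 genes tested, circles 68 other organisers, and black lines the median of all genes of at least 1 CPM in a span range. In knockdown replicate 1 the longest genes lie lowest (-0.67 over 1000 kb), and in knockdown replicate 3 they lie highest (0.33).

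The deposited FPKM of Nrxn3 did not follow its counts fully. On the log2(FPKM + 0.1) scale it deviated from the control mean by -0.68, 0.06 and 0.30 in knockdown replicates 1, 2 and 3. The low value of replicate 2 in counts was thus not seen, and the high value of replicate 3 was smaller. The medians of all genes over 1000 kb moved in the same directions in replicates 2 and 3. In counts they were -0.67, 0.01 and 0.33, and on the FPKM scale -0.70, 0.10 and 0.21. Nlgn1 deviated by -0.50, 0.07 and 0.13 on that scale, close to its counts. Cufflinks divides reads among annotated transcripts, and Nrxn3 has transcripts that begin far apart. The reason for the difference was not tested.

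Promoters listed for Nrxn3, Nlgn1 and Nlgn2 are shown as description only. Nrxn3 and Nlgn1 were low and high in the same libraries, as most long genes were, and Nlgn2 was not. A link between promoters and that pattern was not tested. RefSeq (GRCm38.p6) promoters, from 250 bases before to 50 bases after a start, were found for 4 of the 9 genes. Lrrtm2 and Cbln2 were left out of this search, so it does not show whether they have such promoters. Nrxn3 has 3 such starts, all on the plus strand. The gene itself begins at 88722701, before all 3, so the upstream start is not its first base. The bases before the upstream start end in a run of c and t and then ag, as introns end. Whether this stretch is a promoter was not tested. GENCODE transcripts span up to 1540 kb from the upstream start (chr12:88794254-88794553), up to 1380 kb from the middle start (chr12:88953140-88953439) and up to 521 kb from the downstream start (chr12:89812233-89812532). Nlgn1 is printed at an upstream start (chr3:26331860-26332159, minus strand), where the 1 GENCODE transcript within 100 bases spans 200.2 kb, against 911.1 kb for the gene. Its downstream start, also printed (chr3:26153937-26154236, minus strand), has no GENCODE transcript start within 100 bases. Nlgn2 is printed at chr11:69837735-69838034 (minus strand). Capitals mark matches, on either strand, to a GC box (GGGCGG) or to one side of the binding motif of REST, a repressor of neuronal genes (TTCAGCACC). Sequences run 5′ to 3′ along the gene.
Nrxn3, upstream start: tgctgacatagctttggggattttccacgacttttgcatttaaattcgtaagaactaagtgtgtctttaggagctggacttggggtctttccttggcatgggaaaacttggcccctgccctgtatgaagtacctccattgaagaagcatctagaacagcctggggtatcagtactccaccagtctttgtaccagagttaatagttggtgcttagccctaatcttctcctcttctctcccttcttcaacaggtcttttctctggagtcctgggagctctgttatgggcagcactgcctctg
Nrxn3, middle start: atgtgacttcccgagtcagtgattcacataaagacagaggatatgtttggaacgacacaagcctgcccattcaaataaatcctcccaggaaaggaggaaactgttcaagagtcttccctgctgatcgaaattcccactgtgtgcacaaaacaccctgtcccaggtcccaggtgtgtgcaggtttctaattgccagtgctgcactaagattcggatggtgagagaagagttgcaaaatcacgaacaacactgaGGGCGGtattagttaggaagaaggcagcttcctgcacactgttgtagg
Nrxn3, downstream start: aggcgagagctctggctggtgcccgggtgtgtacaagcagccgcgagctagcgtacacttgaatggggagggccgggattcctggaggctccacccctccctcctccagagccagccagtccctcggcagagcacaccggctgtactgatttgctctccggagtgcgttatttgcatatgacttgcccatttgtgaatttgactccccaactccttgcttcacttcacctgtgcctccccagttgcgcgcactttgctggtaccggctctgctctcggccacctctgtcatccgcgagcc
Nlgn1, upstream start: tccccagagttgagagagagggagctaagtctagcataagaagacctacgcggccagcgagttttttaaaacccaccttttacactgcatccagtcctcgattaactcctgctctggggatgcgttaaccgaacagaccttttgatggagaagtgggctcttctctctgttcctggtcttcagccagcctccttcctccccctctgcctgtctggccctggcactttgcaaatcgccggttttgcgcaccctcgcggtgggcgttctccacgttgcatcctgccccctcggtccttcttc
Nlgn1, downstream start: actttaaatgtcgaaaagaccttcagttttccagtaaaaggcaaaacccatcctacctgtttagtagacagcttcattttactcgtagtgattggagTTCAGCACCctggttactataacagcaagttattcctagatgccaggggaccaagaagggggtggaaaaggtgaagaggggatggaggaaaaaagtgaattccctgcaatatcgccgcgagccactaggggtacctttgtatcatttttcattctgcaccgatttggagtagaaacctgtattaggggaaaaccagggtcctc
Nlgn2: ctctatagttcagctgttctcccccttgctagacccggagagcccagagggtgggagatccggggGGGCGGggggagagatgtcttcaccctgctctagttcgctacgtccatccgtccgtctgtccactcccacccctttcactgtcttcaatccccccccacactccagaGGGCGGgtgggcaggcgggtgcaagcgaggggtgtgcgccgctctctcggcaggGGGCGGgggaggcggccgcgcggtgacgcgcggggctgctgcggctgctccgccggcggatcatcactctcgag

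The printed stretches differ in base composition and in the motifs they hold. Nlgn2 holds 3 GC boxes and a GC content of 68.7%, beside a median of 52.7% over 32851 promoters in the table. The middle start of Nrxn3 holds 1 GC box at a GC content of 47.7%, while its upstream start holds none at 47.3% and its downstream start none at 60.7%. A GC box was present in 35.7% of all promoters. The downstream start of Nlgn1 holds the partial REST motif, which 0.371% of all promoters hold, and its upstream start does not. The TATA box (TATAAA) and the cAMP response element (TGACGTCA) were in none of the 6 stretches shown, against 13.6% and 1.79% of all promoters. A match of letters is no evidence of binding.

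Nlgn2, whose protein sits at inhibitory synapses, was the steadiest of the genes. It was at 376, 407 and 367 CPM in knockdown replicates 1, 2 and 3, against 391, 417 and 369 CPM in control replicates 1, 2 and 3. The groups overlapped throughout, and the SD over all 6 libraries was 0.08 log2 units. Its log2 fold change was -0.03 ± 0.10 (SE, 95% interval -0.24 to 0.18, edgeR adjusted p = 1.00). Nlgn2 lies on chromosome 11 from 69823123 to 69837784 and spans 14.7 kb.

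Nlgn3, the third neuroligin, lies on chromosome X from 101299179 to 101321350. It was at 228, 262 and 254 CPM in knockdown replicates 1, 2 and 3, against 251, 267 and 236 CPM in control replicates 1, 2 and 3. Replicate 2 was the highest library of both groups for Nlgn3 as for Nlgn2. Nlgn3 had a log2 fold change of -0.02 ± 0.10 (SE, 95% interval -0.23 to 0.20, edgeR adjusted p = 1.00). In GENCODE, Nlgn3 shares 3823 exon bases with the transcript Gm21986 on the same strand. If Gm21986 was in the annotation used for counting, reads of that stretch could not be assigned to either. Whether it was there was not checked.

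Both LRRTM genes lie inside a catenin gene on the opposite strand, Lrrtm1 in Ctnna2 (chromosome 6 from 77229210 to 77259915) and Lrrtm2 in Ctnna1 (chromosome 18 from 35209003 to 35215024). The library kit keeps the strand, but the sources used here do not give whether the counting used it, so reads from a catenin intron may be included. In GENCODE, Lrrtm2 also shares 95 exon bases with Ctnna1, while Lrrtm1 shares 0 with Ctnna2. Lrrtm1 was at 33.5, 35.9 and 32.6 CPM in knockdown replicates 1, 2 and 3, against 34.5, 37.4 and 30 CPM in control replicates 1, 2 and 3. The knockdown values lay inside the range of the control. The log2 fold change of Lrrtm1 was 0.00 ± 0.12 (SE, 95% interval -0.25 to 0.26, edgeR adjusted p = 1.00). Lrrtm2 was at 41.8, 47.6 and 54.5 CPM in the knockdown replicates, against 53.7, 48.7 and 58.2 CPM in the control replicates. Knockdown replicates 1 and 2 were below every control library, and replicate 3 was within their range. Its log2 fold change of -0.16 ± 0.12 was the lowest of the 8 with all libraries in the fit (SE, 95% interval -0.43 to 0.11, edgeR unadjusted p = 0.224, adjusted p = 1.00). It was -0.069 without knockdown replicate 1, -0.25 without knockdown replicate 3 and -0.085 without control replicate 3.

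The secreted cerebellins were present at moderate levels. Cbln1 (chromosome 8 from 87468853 to 87472592) was at 55.1, 44.6 and 45.4 CPM in knockdown replicates 1, 2 and 3, against 50.1, 51.5 and 57.7 CPM in control replicates 1, 2 and 3. Knockdown replicates 2 and 3 were below all control libraries, and replicate 1 was above 2 of them. The log2 fold change of Cbln1 was -0.13 ± 0.12 (SE, 95% interval -0.39 to 0.12, edgeR adjusted p = 1.00). It was -0.24 without knockdown replicate 1, -0.080 and -0.081 without knockdown replicates 2 and 3, and -0.062 without control replicate 3. In GENCODE Cbln1 lies inside the long non-coding gene Gm2694, on the opposite strand, with 0 exon bases shared. Cbln2 (chromosome 18 from 86711061 to 86718283) was at 57.0, 57.2 and 43.8 CPM in the knockdown replicates, against 57.1, 58.7 and 47.3 CPM in the control replicates. Replicate 3 was the lowest library of Cbln2 in each group, and the groups otherwise coincided. Cbln2 had a log2 fold change of -0.05 ± 0.13 (SE, 95% interval -0.34 to 0.24, edgeR adjusted p = 1.00).

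The replicate number was tested too, with the group in the fit, since libraries of one number might share a culture. In edgeR 0 of the 8 genes differed between the numbers at an adjusted p under 0.05, against 0.155% of all genes. Cbln2 (adjusted p = 0.473) and Nrxn3 (adjusted p = 0.554) had an unadjusted p under 0.05, and so had 8.94% of all genes.

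Nrxn2 could not be tested on counts, since it is listed at 0 counts in all 6 libraries. It lies on chromosome 19 from 6418756 to 6533217 and spans 114.5 kb, and the tables list it a second time on an alternate sequence of that region, also at 0 counts. The deposited FPKM tables nevertheless place Nrxn2 highest of the 9 genes. Of 625 genes that are listed more than once and reach a summed mean FPKM of 1, 212 (33.9%) were at 0 counts in every copy and library. Among 12074 genes listed once at that level these were 134 (1.11%). In FPKM, Nrxn2 was at 50.7 or more in every library.

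The FPKM of Nrxn2 was 50.7, 92.5 and 57.0 in knockdown replicates 1, 2 and 3, against 81.9, 97.5 and 108 in control replicates 1, 2 and 3. Knockdown replicates 1 and 3 were below every control library, and replicate 2 was among them. The copy on the alternate sequence was at 31.6, 39.8 and 31.1 FPKM in the knockdown replicates, against 31.4, 37.6 and 33.9 FPKM in the control replicates. The log2 fold change of Nrxn2 on the log2(FPKM + 0.1) scale was -0.56 ± 0.25 (SE, 95% interval -1.17 to 0.04, limma unadjusted p = 0.0626, adjusted p = 1.00), where 0% of 14685 entries had an adjusted p under 0.05. None of the 9 genes had an unadjusted p under 0.05 in that fit, against 4.29% of the entries. With both copies summed it was -0.39 ± 0.21 (adjusted p = 1.00).

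Other genes listed more than once gave lower FPKM in the same libraries as Nrxn2. Nrxn2 deviated from the control mean by -0.91, -0.04 and -0.74 log2 units in knockdown replicates 1, 2 and 3. The 8 other genes of at least 1 FPKM with a copy on the same alternate sequence had medians of -0.87, -0.20 and -0.75, and 8 of 8 were below the control mean in both replicates 1 and 3. Over 350 such genes in all, of at least 5 FPKM, the medians were -0.43, -0.03 and -0.43, against 0, 0.11 and -0.09 over 7590 genes listed once. Below the control mean in both replicates 1 and 3 were 82.6% of the 350 genes and 36.3% of the 7590. At an unadjusted p under 0.05 stood 19.7% of the 350 genes and 0.909% of the 7590. In counts, the 169 of these 350 genes that could be tested had medians of -0.03, 0.04 and -0.01. The FPKM medians are over all 350 and not over these 169 alone, so the sets of genes differ. The share that the lower FPKM of genes listed more than once has in the values of Nrxn2 was not tested.

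**Figure D5:**
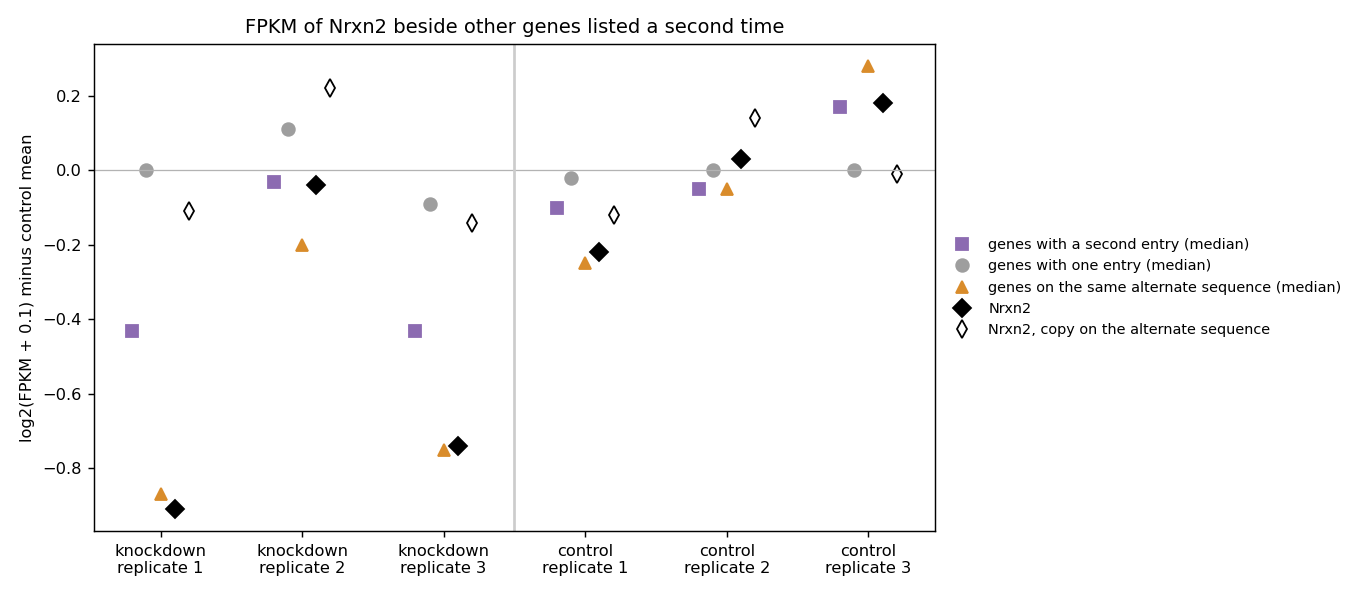
Log2(FPKM + 0.1) minus the control mean in each library for Nrxn2, its copy on the alternate sequence, and the medians of 350 genes listed more than once, 7590 genes listed once and 8 other genes on the same alternate sequence. Nrxn2 (-0.91 and -0.74 in knockdown replicates 1 and 3) lies next to the genes of its own alternate sequence (-0.87 and -0.75).

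Other synaptic organisers, a list of 68 genes that are none of the 9, were set beside them. All 68 were tested, and 0 passed the threshold as higher and 0 as lower in the knockdown (edgeR, adjusted p under 0.05). The median log2 fold change was -0.005, with 30 genes above 0 and 38 below, and the groups did not overlap in 1 of 68, against 5.20% of all genes tested. By role, the median was 0.009 over 15 presynaptic hubs and adhesion partners, 0.011 over 19 postsynaptic leucine-rich repeat genes, -0.018 over 14 other postsynaptic partners and -0.012 over 20 secreted organisers. In each role the gene with the smallest p and the one with the highest FPKM are named, with log2 fold change ± SE. The latrophilin gene Adgrl1, whose protein binds neurexins and teneurins, had a log2 fold change of 0.07 ± 0.10 (SE). Lrfn2, a postsynaptic adhesion gene, had 0.16 ± 0.13, and Lrrc4b, the gene of the receptor phosphatase ligand NGL-3, had 0.08 ± 0.11. Igsf9b, of inhibitory synapses, had -0.08 ± 0.10, the dystroglycan gene Dag1 -0.01 ± 0.09, and Sparcl1, the gene of the astrocyte protein hevin, -0.06 ± 0.17.

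C1ql1, which encodes a secreted relative of the cerebellins, was the one organiser whose groups did not overlap. It was at 6.89, 8.04 and 6.67 CPM in knockdown replicates 1, 2 and 3, against 8.54, 9.78 and 8.99 CPM in control replicates 1, 2 and 3. All knockdown libraries were below all control libraries. C1ql1 had a log2 fold change of -0.34 ± 0.15 (SE, 95% interval -0.67 to -0.01), with an unadjusted p of 0.0453 and an adjusted p of 1.00 in edgeR.

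The calsyntenin gene Clstn1, whose protein is a synaptic adhesion molecule, has a copy on an alternate sequence as Nrxn2 has, and it did receive counts. In counts it was at 153, 173 and 149 CPM in knockdown replicates 1, 2 and 3, against 161, 160 and 144 CPM in control replicates 1, 2 and 3, a log2 fold change of 0.03 ± 0.10 (SE, edgeR adjusted p = 1.00). Its FPKM was 77.3, 121 and 82.6 in the knockdown replicates, against 103, 117 and 132 in the control replicates. The groups coincided in counts, while in FPKM knockdown replicates 1 and 3 were below all control libraries, the same libraries as for Nrxn2. On the log2(FPKM + 0.1) scale the fold change of Clstn1 was -0.35 (limma adjusted p = 1.00). The 2 genes differed in their copies. On that scale the copy of Clstn1 deviated from the control mean by -0.50, 0.02 and -0.42 in knockdown replicates 1, 2 and 3. The copy of Nrxn2 deviated by only -0.11, 0.22 and -0.14. Whether the counts of Clstn1 cover all of its reads was not tested.

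The long genes among the other organisers deviated in the same libraries. Of the 20 that span at least 300 kb, 20 were below the control mean in knockdown replicate 1 and 20 above it in knockdown replicate 3, with median deviations of -0.43, 0 and 0.31 log2 units in knockdown replicates 1, 2 and 3. Of the 48 shorter ones, 34 were below in replicate 1 and 23 above in replicate 3, with medians of -0.08, 0.07 and -0.01. Among all genes, the share below the control mean in knockdown replicate 1 was 37.2% under 10 kb, 41.3% at 10 to 30 kb, 53.8% at 30 to 100 kb and 80.8% at 100 to 300 kb. The share above the control mean in knockdown replicate 3 was 31.6%, 41.9%, 58.2% and 70.1% in the same ranges. Among all genes of 300 to 1000 kb, 97% were below the control mean in knockdown replicate 1 and 85.5% above it in knockdown replicate 3. Over 1000 kb these shares were 100% and 93%.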

How the data were processed

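RNA of 6 libraries was sequenced in pairs of 150 bases. The deposited counts are whole numbers per gene in 42396 rows, 1 table per library and not pooled, and no row lacks a gene name. Of the aligner, the counter and the use of strand, the sources used here say nothing. The authors deposited FPKM with confidence bounds, per the file headers. Cufflinks 2.2.1, DESeq2, bcl2fastq 2.20 and GRCm38 (mm10) are named in the submitters' processing notes. Of 39740 positions matched by symbol, 39708 equal those of RefSeq for GRCm38.p6, including the 9 genes. Of the few FPKM entries listed more than once under one name, the first row was used.

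The members and gene lists were chosen with earlier results of these data known. Counts were filtered with filterByExpr (17439 genes kept), scaled by TMM and tested with edgeR 4.0.16 (R 4.3.3) by the quasi-likelihood test on group alone, with Benjamini-Hochberg adjustment over all genes and a threshold of 0.05. Log2 CPM used a prior count of 2. FPKM were tested with limma 3.58.1 on log2(FPKM + 0.1) at a mean FPKM of at least 0.5. Such fold changes understate those of low genes. The design named counts for all members, and Nrxn2 needed FPKM. Intervals are at 95%, and the smallest exact permutation p for 3 against 3 libraries is 0.1.

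Named genes were the 9 members, in each role of the organiser list the gene with the smallest p and that with the highest mean FPKM, and, for the 3 most variable members, the 3 genes of at least 1 CPM with the closest profile. Markers of cell types were named beside them. The alternatives were other scalings, filters and tests (DESeq2 1.42.0 and voom), a block for the replicate number, FPKM and leaving out each library. A trend over gene span as an offset (loess, span 0.5) and the sum of the Nrxn2 copies were added after seeing the data. The fits were tested on simulated data. No library repeats another: for pairs within a group, chi-square over its degrees of freedom ran from 12.8 to 91.4.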

Additional observations from a re-analysis of the deposited data

How the results depend on the processing

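Under each of 17 alternatives to the group comparison, 0 of the 8 genes with counts and 0 of the 68 organisers passed the threshold. Nrxn2, run only on FPKM, did not pass it in any of its 9 alternatives. Over all genes 11 were called without the filter on low counts and 1 by DESeq2, and 0 in the other alternatives. The replicate numbers paired the libraries only in part. Deviations of same-numbered libraries correlated at 0.32, 0.35 and 0.05 for numbers 1, 2 and 3. The knockdown and control libraries were each other's best match for numbers 1 and 2 but not for number 3. With the replicate block 0 genes were called, 258 had an unadjusted p under 0.05 against 191 without it, and Nrxn3 had a log2 fold change of -0.011. Across the replicate numbers, no filter on low counts gave 1 of the 8 genes with counts, Nrxn3 (edgeR adjusted p = 1.46e-05). It gave 10 of the 68 organisers and 741 of all genes, against 0 and 27 with the filter. In the group comparison without that filter the SE was 0.115 for each of Nrxn3, Nlgn1 and Nlgn2. With the filter it was 0.254, 0.148 and 0.0959, so the unfiltered fit did not keep the spread of each gene apart. The cause of the additional calls was not tested.

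Of 281 alternative values for 17 named genes, 245 kept direction and side of the threshold and 36 changed sign without passing the threshold. Nrxn3 was -0.0062 in limma voom, and -0.11, -0.10 and -0.11 on log2(FPKM + 0.1), on log2(FPKM + 1) and without a filter on FPKM. In these 3 settings Nlgn3 was 0.0052, 0.0051 and 0.0052, Clstn1 -0.35, -0.35 and -0.35, and Dag1 0.0078, 0.0076 and 0.0078. Dag1 was also 0.00047 with library totals, 0.0011 without the filter on low counts and 0.0073 with the span trend, and Lrrtm1 was -0.0019 in limma voom. Leaving out each library in turn gave -0.37 to 0.33 for Nrxn3, -0.21 to 0.10 for Nlgn1, -0.079 to 0.026 for Nlgn2, -0.060 to 0.043 for Nlgn3, -0.071 to 0.090 for Lrrtm1, -0.25 to -0.069 for Lrrtm2, -0.24 to -0.062 for Cbln1 and -0.13 to 0.079 for Cbln2. It gave -0.038 to 0.083 for Clstn1, -0.051 to 0.036 for Dag1 and -0.25 to 0.078 for Sparcl1. Nrxn2 ran from -0.82 to -0.39 on FPKM, lowest without knockdown replicate 2 (limma adjusted p = 0.351). With the span trend as an offset the SE was 0.148 for Nrxn3 and 0.0823 for Nlgn1, and the adjusted p stayed at 1.00 for both (edgeR). Changes in splicing of the neurexins could not be seen in gene-level values.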

Other observations

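The profiles most like those of the 3 most variable genes were sought among genes of at least 1 CPM, by the root-mean-square distance of log2 CPM over 6 libraries, each centred on its own mean. Closest to Nrxn3 were the laminin gene Lama3 at a distance of 0.068 log2 units, Csmd1 at 0.080 and Dnah7c at 0.104, with spans of 250, 1640 and 382 kb. Csmd1, which encodes a complement regulator, was at 89.5, 122 and 217 CPM in knockdown replicates 1, 2 and 3, against 121, 146 and 142 CPM in control replicates 1, 2 and 3. Closest to Nlgn1 were B3galt1 at 0.022, Vps13b at 0.030 and the cadherin gene Cdh7 at 0.031, with spans of 557, 560 and 163 kb. Closest to Cbln2 were Zfp580 at 0.026, Mex3b at 0.035 and Gal3st3 at 0.042, with spans of 15.2, 4.24 and 10.4 kb.

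Nrxn2 was number 17 by summed mean FPKM among the 212 genes that are listed more than once at 0 counts in every copy. The ribosomal protein gene Rps18 (298 FPKM), Eif5a (178 FPKM), Gabarap (175 FPKM) and Ppp1ca (175 FPKM), picked after their values were seen, stand above it. Counts of 0 for these genes are no measurement of their expression.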
